A study of Mus musculus with 36 samples.

Results

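Rbfox1, Rbfox2 and Rbfox3 are the 3 genes of the mouse Rbfox family of splicing factors, and all 3 were listed among the 25239 genes of the expression table. They were taken by name, not by any measured value, but with earlier results of these data known. N2a, a mouse neuroblastoma cell line, was transfected with plasmids encoding RfxCas13d, an RNA-targeting nuclease, or dRfxCas13d, its catalytically dead form, and RNA of GFP-positive cells was sequenced 48 h later. The crRNA partner of each nuclease was none, a non-targeting control (NT crRNA) or one of 7 against a message, namely Sik3-S crRNA 1 or 8, Map2 crRNA 1 or 3, Mapt crRNA 4 or 6, and Rbfox3 crRNA 5. These made 18 groups of 2 libraries, 36 in all. Nothing says that the 2 libraries of a group came from separate transfections, so p-values measure only the spread between these libraries, which may be technical. All libraries came from 1 transformed cell line that was transiently transfected. Levels are relative to the other RNA of the same library, not amounts per cell. A lower level may come from fewer cells expressing a gene, from less of its RNA per cell or from more of other RNA. These cannot be told apart in bulk RNA. The titles of the 4 Rbfox3 libraries and the column names of their expression values give the crRNA as number 5. Their transfection labels give it as number 6. Number 5, as in the titles and column names, is used here.

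Rbfox proteins bind the RNA motif UGCAUG through a nearly identical RNA recognition domain, in introns beside alternative exons and in the ends of messages. Binding downstream of an exon usually favours its inclusion and binding upstream its skipping. RBFOX3 is the antigen known as NeuN, the standard marker of mature neuronal nuclei. Rbfox1 is expressed mainly in neurons, heart and skeletal muscle, while Rbfox2 is expressed in many cell types and in embryos.

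The crRNA against Rbfox3 and the matching places in its 2 relatives are shown first, because they set which family members this crRNA could pair with. The crRNA spacer is written 5′ to 3′ in DNA letters, and the 3 sites are the message strand that it would pair with. Capitals mark bases of Rbfox1 and Rbfox2 that differ from the Rbfox3 site.
Rbfox3 crRNA 5 spacer: aaatccatcctgatacacgacc
Rbfox3 site: ggtcgtgtatcaggatggattt
Rbfox1 site: TgtTgtTtaCcaggatggattt
Rbfox2 site: TgtGgtTtaCcaggaCggattt

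The Rbfox3 site, chr11:118496369-118496390 on the minus strand of GRCm38 (mm10), matched the spacer at all 22 bases. It lay in coding exon 12 of 15 of the GENCODE transcript ENSMUST00000017576.10 and was found in 6 of 10 annotated Rbfox3 transcripts. The best place in Rbfox1, chr16:7363865-7363886 on the plus strand, had 4 mismatches, a longest matched run of 12 bases, and was present in 4 of 8 transcripts. The best place in Rbfox2, chr15:77094469-77094490 on the minus strand, had 5 mismatches, a longest matched run of 6 bases, and was present in 4 of 15 transcripts. Every mismatch in both relatives fell on the third base of a codon. The NT crRNA had at best 8 or 9 mismatches to each of the 3 genes. The other spacer that the labels could mean is shown for comparison.
Rbfox3 crRNA 6 spacer: gcagcaacattcaatgaggcca
Rbfox3 site of crRNA 6: tggcctcattgaatgttgctgc

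Its site, chr11:118490729-118490750 on the minus strand, lay in an untranslated region of 2 of 10 Rbfox3 transcripts, and its best places in Rbfox1 and Rbfox2 each had 9 mismatches. Which of the 2 spacers was transfected cannot be settled from the expression table.

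In N2a cells the family was represented almost wholly by Rbfox2. Levels were the deposited FPKM, fragments scaled for exon length and for the mapped fragments of the library, which can be compared between genes. Over the 18 dRfxCas13d libraries Rbfox2 (chr15:77078990-77307004, minus strand) averaged 29.1 ± 1.322 FPKM (SD, n = 18). Rbfox1 (chr16:5885355-7411526, plus strand) averaged 0.319 ± 0.0897 FPKM (SD, n = 18), and Rbfox3 (chr11:118489762-118911597, minus strand) 0.0316 ± 0.0316 FPKM (SD, n = 18). Rbfox2 made up 98.2 to 99.6% of the summed FPKM of the 3 genes in every one of the 36 libraries. About 1720 to 3770 fragments per library lay behind the Rbfox2 value. This range is approximate, because it rests on estimated depths and on the GENCODE exon length, not on a length fitted to the Rbfox2 values.

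Among the 29 other neuronal and muscle splicing regulators on a list of known factors, 10 had a higher mean FPKM than Rbfox2 in the dRfxCas13d libraries, and 8 were under 1 FPKM. The highest was Ptbp1, a repressor of neuronal exons, at 174 ± 20.1 FPKM (SD, n = 18). Its neuronal paralog Ptbp2 was at 40.6 ± 2.67 FPKM (SD, n = 18). Rbfox2 was above 77.8% of the 13293 genes tested, which reached 1 FPKM in 2 or more libraries.

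The cells were checked against marker lists. Of 10 sympathetic neuroblast genes, 8 averaged at least 1 FPKM, led by Hand2 and Phox2a, transcription factors of that lineage, while Th, the enzyme that starts catecholamine synthesis, stood at 0.242 ± 0.144 FPKM (SD, n = 18). Of 15 mature neuron genes, 9 averaged at least 1 FPKM, among them Tubb3, the neuronal tubulin, at 338 ± 21.5 FPKM. The neurofilament genes Nefl and Nefm, the vesicular transporter genes Slc17a6 and Slc17a7, and Gad1 and Gad2 of GABA synthesis were all under 1 FPKM, as was Rbfox3. The summed FPKM of 8 glia, 7 fibroblast and 6 macrophage markers was at most 5.72, 5.42 and 5.23 in any library. One library, RfxCas13d with NT crRNA replicate 1, carried liver messages, with 18 liver transcripts summing to 636.4 FPKM against at most 14.1 in each of the other 35, so the main results with NT crRNA are also given without it. Among those 35 the sum was 4.00 to 14.1 FPKM with dRfxCas13d. It was 0.693 to 2.03 FPKM with RfxCas13d and a targeting crRNA, and 2.89 to 6.42 FPKM in the remaining RfxCas13d libraries.

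Rbfox3 itself was hardly detected, so its knockdown could not be measured. Its FPKM was 0 in 12 of the 36 libraries and at most 0.113 in the others. From the estimated depth of 8680000 to 16530000 fragments per library and an effective exon length fitted to the Rbfox3 values, these correspond to 0 to 5 fragments, and all 24 values above 0 came out whole within 0.2 fragments. A library with no fragment allowed about 3 fragments by a one-sided 95% bound. The intervals here are two-sided and cover counting error only.

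With Rbfox3 crRNA 5, the 2 RfxCas13d libraries had 0.018 and 0.046 FPKM of Rbfox3, or 1 and 3 fragments. The 2 dRfxCas13d libraries had 0.041 and 0.113 FPKM, or 2 and 5 fragments. The value of dRfxCas13d replicate 2 was the highest of all 36 libraries, and the 2 groups overlapped. In total 4 fragments against 7 gave a ratio per sequenced fragment of 0.442 with an exact 95% counting interval of 0.0949 to 1.74. The interval held no change as well as a fall below 10% of the control, so a difference was not detectable at this depth.

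Across all 9 crRNA conditions, Rbfox3 summed to 28 fragments in the 18 RfxCas13d libraries and to 28 in the 18 dRfxCas13d libraries. The permutation test of nuclease labels within each crRNA condition gave p = 0.511 (two-sided, 100000 resamples) for a difference of -0.00664 scaled FPKM, RfxCas13d minus dRfxCas13d, and p = 0.547 without the library with liver messages. Without the 4 libraries with Rbfox3 crRNA 5 the difference was -0.0019 scaled FPKM with p = 0.851 by the same permutation test. With Mapt crRNA 6 alone the libraries did not overlap, at 0 and 0.031 FPKM against 0.047 and 0.059 FPKM, but these are 0 to a few fragments each.

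**Figure D1:**
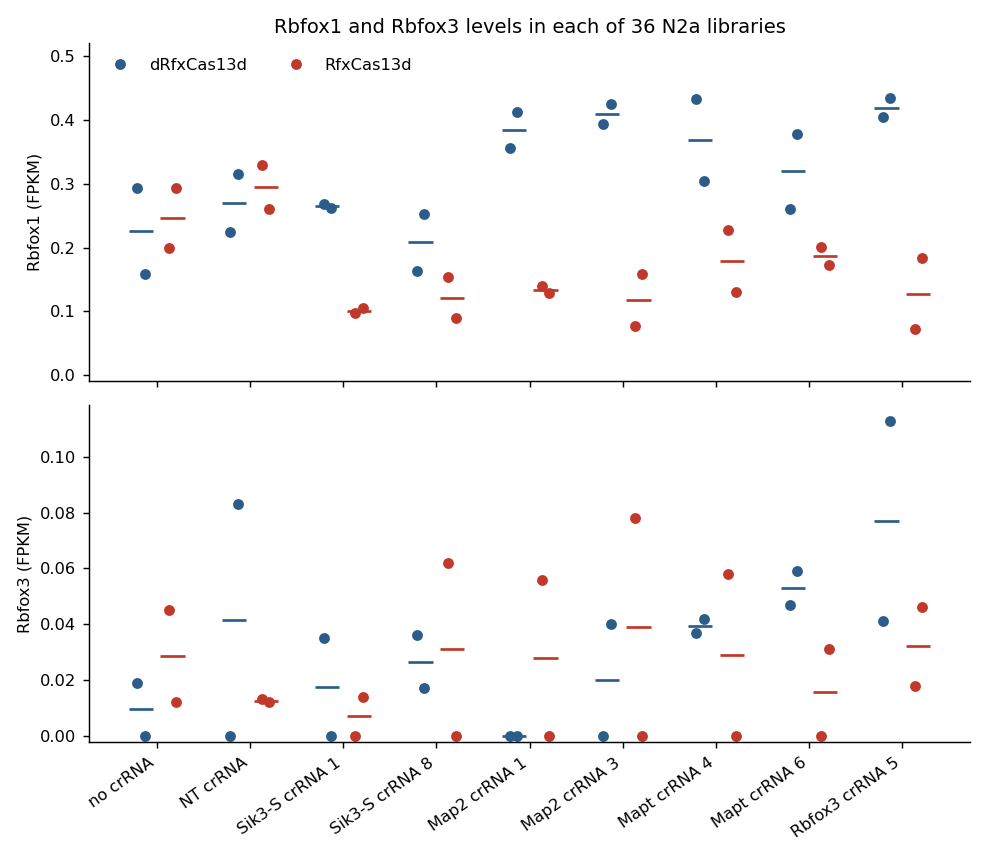
FPKM of Rbfox1 (upper) and Rbfox3 (lower) in each of the 36 libraries, by crRNA condition and nuclease; points are libraries and bars group means, n = 2 per group. Rbfox1 was lower with RfxCas13d in all 7 targeting conditions and overlapped in the other two, while Rbfox3 stayed at or below 0.113 FPKM and overlapped in 8 of 9 conditions.

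Rbfox1, the family member whose best match to the spacer was the closer of the pair, was lower with RfxCas13d, and this was so with every targeting crRNA. Under Rbfox3 crRNA 5 it was at 0.072 and 0.183 FPKM in the RfxCas13d libraries and at 0.405 and 0.434 FPKM in the dRfxCas13d libraries. The groups did not overlap, as for 37.4% of the 2540 genes with a mean of 0.1 to 0.5 FPKM, and the RfxCas13d mean was 30.4% of the dRfxCas13d mean. About 6 and 18 fragments against 30 and 29 lay behind these values, and the ratio per sequenced fragment was 0.314 (exact 95% counting interval 0.187 to 0.513).

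The other targeting crRNAs gave the same direction. Over the 6 of them the ratio was 0.423 with a counting interval of 0.348 to 0.514, which overlaps that of Rbfox3 crRNA 5. The smallest ratio of group means was with Map2 crRNA 3, at 28.7%, and the largest with Mapt crRNA 6, at 58.5%. Over the 7 targeting crRNAs together, Rbfox1 ranged from 0.072 to 0.228 FPKM with a median of 0.135 in 14 RfxCas13d libraries, and from 0.164 to 0.434 FPKM with a median of 0.367 in 14 dRfxCas13d libraries. Non-overlap in that direction with all 7 crRNAs was seen for 7.52% of those 2540 genes of a like level.

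Without a targeting crRNA Rbfox1 did not show this. RfxCas13d alone gave 0.199 and 0.294 FPKM against 0.294 and 0.159 FPKM with dRfxCas13d alone. With NT crRNA it was 0.329 and 0.261 FPKM against 0.225 and 0.316 FPKM. The groups overlapped in both conditions, and the pooled ratio was 1.11 (exact 95% counting interval 0.831 to 1.501). Without the library with liver messages it was 1.04 (0.756 to 1.432).

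Over all 18 RfxCas13d and 18 dRfxCas13d libraries Rbfox1 differed by -0.149 scaled FPKM (permutation test within crRNA conditions, two-sided, p = 5e-05, lower in 7 of 9 conditions). In the 7 targeting conditions alone, a choice made after the data were seen, the difference was -0.198 scaled FPKM with a permutation p = 1e-05, the smallest that 100000 resamples can give. In the 2 conditions without a targeting crRNA it was 0.0217 scaled FPKM with p = 0.611 by an exact permutation test, which cannot go below 0.0556. Without the library with liver messages it was 0.00471 scaled FPKM with p = 1 by the same exact test, which then cannot go below 0.111. Over all conditions the difference without that library was -0.153 scaled FPKM with a permutation p of 5e-05.

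Rbfox1 was below 1 FPKM in every library and therefore outside the main model. A further fit took the 21157 genes above 0 in any library with a pseudocount of 0.1, also chosen after the data were seen. In it the log2 fold change of Rbfox1 with Rbfox3 crRNA 5 was -1.23 ± 0.296 (SE, limma, adjusted p = 2.37e-03). The mean over the 7 targeting crRNAs was -0.87 ± 0.112 (limma, adjusted p = 5.42e-07), and the difference of this mean from NT crRNA was -0.97 ± 0.317 (limma, adjusted p = 0.0379). In that fit 17.8%, 30.8% and 9.96% of the 21157 genes were lower in these 3 comparisons. The first call was lost without RfxCas13d replicate 1 of that crRNA (-0.87, limma, adjusted p = 0.0617), and the mean over the 7 passed the test whichever of the 36 libraries was left out. The difference from NT crRNA was not called without the library with liver messages (-0.84 ± 0.377, limma, adjusted p = 0.173), nor without dRfxCas13d replicate 1 with NT crRNA (-0.79, limma, adjusted p = 0.183). Rbfox1 passed the test with Sik3-S crRNA 1, Map2 crRNA 1 and Map2 crRNA 3, but not with Sik3-S crRNA 8, Mapt crRNA 4 or Mapt crRNA 6, where the adjusted p lay between 0.0551 and 0.280. Sik3-S crRNA 1 lost its call on leaving out any 1 of its 4 libraries (limma, adjusted p = 0.0875 to 0.116), Map2 crRNA 1 without dRfxCas13d replicate 2 (0.0606) and Map2 crRNA 3 without RfxCas13d replicate 1 (0.0530). Mapt crRNA 4 was called in 8 of the 36 fits with a library left out, with its lowest adjusted p at 0.0373. Its fall with Rbfox3 crRNA 5 was not shown to differ from the mean of the other 6 targeting crRNAs, with a difference of -0.43 (95% CI -1.09 to 0.24, limma, adjusted p = 0.597).

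Rbfox2, the abundant member, was lower with RfxCas13d than with dRfxCas13d when Rbfox3 crRNA 5 was present. It stood at 23.5 and 23.8 FPKM in the RfxCas13d libraries and at 28.7 and 30.0 FPKM in the dRfxCas13d libraries. Both RfxCas13d libraries were below both dRfxCas13d libraries, as for 34.6% of genes tested, and their mean was 80.8% of the control mean. On the log2(FPKM + 1) scale the change was -0.30 ± 0.0471 (SE, limma over all 36 libraries, adjusted p = 1.82e-05, 95% CI -0.39 to -0.20). At an adjusted p under 0.05, 24.8% of the 13293 genes tested were lower and 26.4% higher in this comparison. Rbfox2 did not reach the 2-fold change that the study also asks of a differentially expressed gene (DEG), which 1.33% of genes reached downwards.

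Rbfox2 fell with each of the other 6 targeting crRNAs as well, none of which was designed against the Rbfox family. With Sik3-S crRNA 1 it was at 19.8 and 19.9 FPKM against 30.6 and 29.9 FPKM. With Sik3-S crRNA 8 it was at 19.6 and 21.3 FPKM against 31.2 and 30.2 FPKM. These were its deepest falls of the 7, with log2 fold changes of -0.55 and -0.53, where 25.4% and 25.5% of genes fell.

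With Map2 crRNA 1 Rbfox2 was at 20.1 and 20.5 FPKM against 29.5 and 29.1 FPKM. With Map2 crRNA 3 it was at 20.5 and 22.1 FPKM against 28.4 and 27.8 FPKM. The log2 fold changes were -0.46 and -0.38, where 25.7% and 22.9% of genes fell.

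With Mapt crRNA 4 Rbfox2 was at 20.0 and 21.02 FPKM against 27.2 and 28.4 FPKM. With Mapt crRNA 6 it was at 18.9 and 19.3 FPKM against 26.7 and 27.2 FPKM. The log2 fold changes were -0.41 and -0.47, where 26.8% and 26.6% of genes fell, and for all 6 crRNAs limma's adjusted p was at most 1.13e-06.

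The mean log2 fold change of Rbfox2 over the 7 targeting crRNAs was -0.44 ± 0.0178 (SE, limma, adjusted p = 3.15e-16, 95% CI -0.48 to -0.40). This SE and interval hold only the spread between the 2 libraries of each group. They leave out the spread between crRNAs, whose single values ran from -0.55 to -0.30. The level of Rbfox2 averaged 20.7 ± 1.498 FPKM with RfxCas13d and 28.9 ± 1.38 FPKM with dRfxCas13d (SD, n = 14 libraries each, 2 per crRNA). The 2 sets of libraries did not overlap. Of all genes tested, 38.1% were lower at an adjusted p under 0.05 in this contrast, and the log2 fold change of 10.5% was below that of Rbfox2. Rbfox2 was lower without overlap in all 9 crRNA conditions, as were 6.69% of the genes tested, and in all 7 targeting conditions, as were 20.3%.

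**Figure D2:**
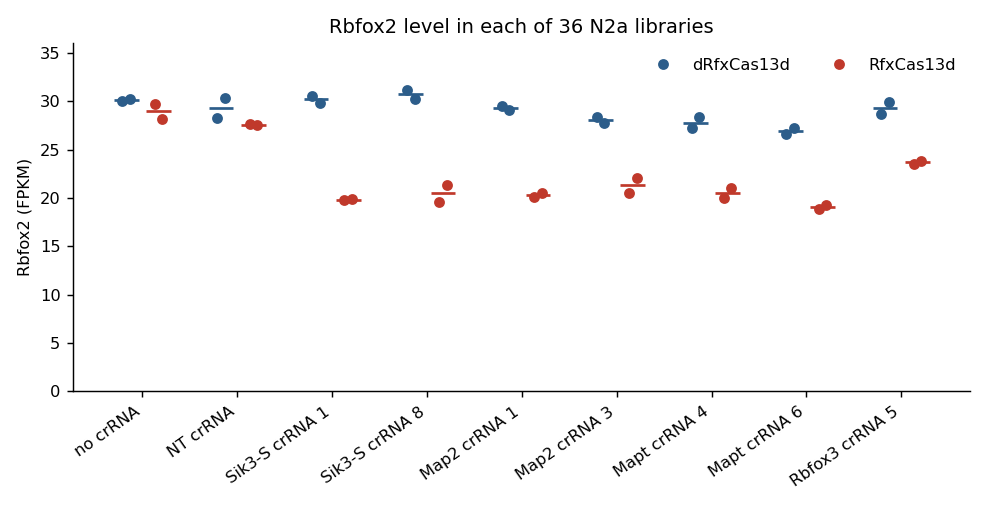
FPKM of Rbfox2 in each of the 36 libraries, by crRNA condition and nuclease; points are libraries and bars group means, n = 2 per group. RfxCas13d with a targeting crRNA lay between 18.9 and 23.8 FPKM, and every other library between 26.7 and 31.2 FPKM.

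Without a targeting crRNA the nucleases differed less. RfxCas13d alone gave 29.8 and 28.2 FPKM of Rbfox2 against 30.0 and 30.2 FPKM with dRfxCas13d alone, a log2 fold change of -0.06 (95% CI -0.15 to 0.04, limma, adjusted p = 0.590). With NT crRNA it was 27.6 and 27.5 FPKM against 28.3 and 30.4 FPKM, a log2 fold change of -0.09 (95% CI -0.18 to 0.01, limma, adjusted p = 0.208). Neither difference passed the test, which 2.85% and 11.3% of genes passed downwards, although in both the RfxCas13d libraries were the lower, and without the library with liver messages the NT value was -0.09 with an adjusted p of 0.358 in limma. With any 1 of the 4 libraries of the condition left out, these shares were 1.26 to 1.45% and 6.96 to 7.64%. The log2 fold change of Rbfox2 then moved between -0.10 without RfxCas13d replicate 1 and -0.01 without RfxCas13d replicate 2 for no crRNA, and for NT crRNA between -0.13 without dRfxCas13d replicate 1 and -0.04 without dRfxCas13d replicate 2. None of these values passed the test (limma, adjusted p at least 0.117).

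The effect of a targeting crRNA beyond that of NT crRNA was tested as an interaction. NT crRNA was the only non-targeting spacer, so this test cannot speak for non-targeting crRNAs in general. Its p-value holds the spread between libraries, not that between crRNAs. Rbfox2 gave -0.36 ± 0.0504 (SE, limma, adjusted p = 1.71e-05), where 15.0% of genes tested were negative at an adjusted p under 0.05. Without the library with liver messages it was -0.35 with an adjusted p of 3.89e-04 in limma. The nuclease effect with NT crRNA was not shown to differ from that with no crRNA, at -0.03 (95% CI -0.17 to 0.11, limma, adjusted p = 0.874), and -0.03 with an adjusted p of 0.906 without that library.

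With dRfxCas13d, which binds but does not cut, no targeting crRNA changed Rbfox2 beyond the threshold. Against NT crRNA the 7 log2 differences lay between -0.10 with Mapt crRNA 6 (limma, adjusted p = 0.138) and 0.07 with Sik3-S crRNA 8 (limma, adjusted p = 0.470). For Rbfox3 crRNA 5 the difference was 0.00 (95% CI -0.10 to 0.10). In RfxCas13d cells the same crRNA against NT crRNA lowered Rbfox2 by a log2 difference of -0.21 ± 0.0471 (SE, limma, adjusted p = 2.48e-03, with 12.0% of genes lower), and -0.21 with an adjusted p of 0.0229 without the library with liver messages. In a limma fit of only these 4 libraries its adjusted p was 0.0686.

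The fall with Rbfox3 crRNA 5 was the smallest of the 7. Against the mean of the other 6 targeting crRNAs it differed by 0.17 ± 0.0509 on the log2 scale (SE, limma, adjusted p = 0.0487, 95% CI 0.06 to 0.28, with 3.01% of genes positive). This call sat at the threshold. It was lost when any of 28 of the 36 libraries was left out, with adjusted p from 0.0263 to 0.252 over all 36. The 8 whose removal left it were both of RfxCas13d alone, both of dRfxCas13d with NT crRNA, replicate 2 of RfxCas13d with Map2 crRNA 3, Mapt crRNA 4 and Sik3-S crRNA 8, and replicate 1 of dRfxCas13d with Mapt crRNA 4. It was also lost when the exon length trend was removed (0.13, adjusted p = 0.152). Against single crRNAs, comparisons added after the data were seen, it differed from Sik3-S crRNA 1 by 0.25 (limma, adjusted p = 0.0288, with 2.57% of genes positive) and from Sik3-S crRNA 8 by 0.23 (limma, adjusted p = 0.0361, with 3.99% of genes positive). The first was lost on leaving out any library with Sik3-S crRNA 1, RfxCas13d replicate 2 or dRfxCas13d replicate 1 with Rbfox3 crRNA 5. The second was lost without RfxCas13d replicate 1 or either dRfxCas13d library with Sik3-S crRNA 8, and without either RfxCas13d library or dRfxCas13d replicate 1 with Rbfox3 crRNA 5. Both were lost with the exon length trend removed. From Map2 crRNA 3, the next smallest fall, the difference was 0.08 (95% CI -0.06 to 0.22, limma, adjusted p = 0.606). The interquartile range of the log2 fold changes over all genes was 0.515 with Rbfox3 crRNA 5 and from 0.464 with Map2 crRNA 3 to 0.573 with Mapt crRNA 4.

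**Figure D3:**
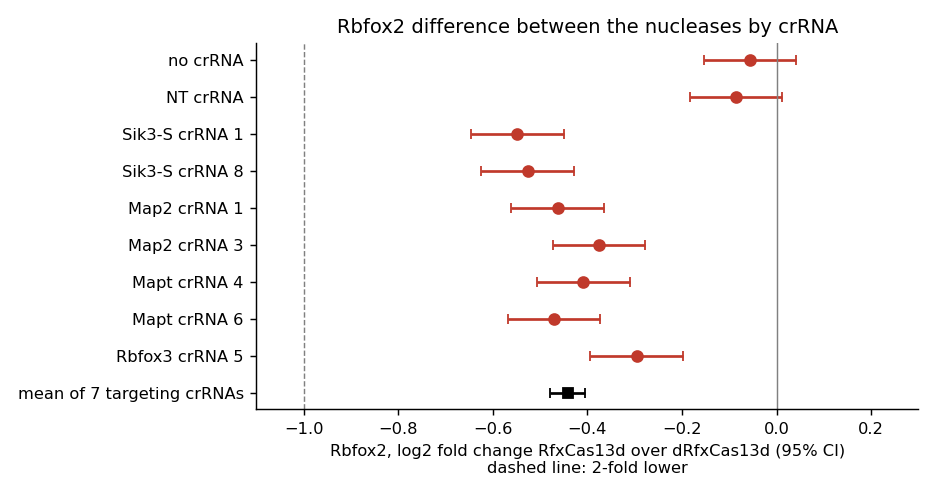
Log2 fold change of Rbfox2, RfxCas13d over dRfxCas13d, in each crRNA condition (circles) and for the mean of the 7 targeting crRNAs (square), with 95% confidence intervals from limma. The intervals of all 7 targeting crRNAs lie below 0 and above the dashed line of a 2-fold fall, those of no crRNA and NT crRNA include 0, and Rbfox3 crRNA 5 is the targeting crRNA nearest to 0.

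Ordered by mean FPKM of Rbfox2, the 7 groups with RfxCas13d and a targeting crRNA were the lowest of the 18. Mapt crRNA 6 was lowest at 19.1 ± 0.298 FPKM, followed by Sik3-S crRNA 1 at 19.8 ± 0.0926 FPKM (SD, n = 2 each). Each of these was apart from the group above it by more than the larger SD. Map2 crRNA 1, Sik3-S crRNA 8, Mapt crRNA 4 and Map2 crRNA 3 came next, and these 4 were apart from each other, neighbour by neighbour, by less than the larger SD. Rbfox3 crRNA 5 was the highest of the 7 at 23.7 ± 0.221 FPKM (SD, n = 2), above Map2 crRNA 3 by more than their spread. The 11 remaining groups ran from dRfxCas13d with Mapt crRNA 6 at 27.0 ± 0.404 FPKM to dRfxCas13d with Sik3-S crRNA 8 at 30.7 ± 0.696 FPKM (SD, n = 2 each). From RfxCas13d with NT crRNA up to dRfxCas13d with Map2 crRNA 1, no neighbours in the order were apart by more than the larger SD.

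Genes with longer merged exons tended to be lower with RfxCas13d and a targeting crRNA. Rbfox2 has 8140 nt of exons merged over its annotated transcripts in GENCODE, and the length of its message in N2a cells was not measured. Among 953 genes of over 8000 and up to 10000 nt, the median log2 fold change in the mean of the 7 targeting crRNAs was -0.17, 64.7% fell, and 16.5% were at or below the value of Rbfox2. Among genes of over 1000 and up to 2000 nt the median was 0.21. With the trend on exon length removed, the log2 fold change of Rbfox2 was -0.30 for the mean of the 7 (limma, adjusted p = 5.93e-13) and -0.19 with Rbfox3 crRNA 5 (limma, adjusted p = 2.26e-03). The part of exon length in the values of Rbfox2 was not tested beyond this.

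**Figure D4:**
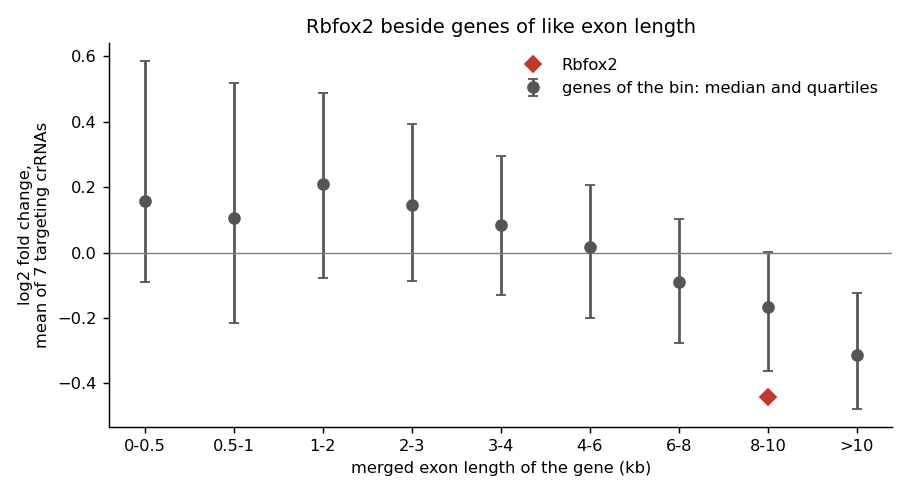
Median log2 fold change (circles, quartiles as bars) of the mean of the 7 targeting crRNAs for genes tested, binned by merged exon length, with Rbfox2 (diamond) in its bin of 8 to 10 kb. The medians fall from 0.21 at 1 to 2 kb to -0.31 above 10 kb, and Rbfox2 lies below the lower quartile of its bin.

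The genes whose 18 group means were most like those of Rbfox2 were Trrap, Ipo11, Dmxl2, Far1 and Htt. The measure was the root mean square difference of the group means, each centred on its gene, on the log2(FPKM + 1) scale over 18 groups and 8966 genes averaging 5 FPKM or more. It was 0.0473 for Trrap, a subunit of histone acetyltransferase complexes, and 0.0562 for Htt, the huntingtin gene, against a median of 0.265 over all these genes. Their mean log2 fold changes over the 7 targeting crRNAs lay between -0.47 for Ipo11 and -0.38 for Htt, beside -0.44 for Rbfox2. Because these genes were picked on the same group means, this closeness follows from the choice and is no separate result.

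The crRNA targets of the other groups were also read in the cells with Rbfox3 crRNA 5, which was designed against none of them. Sik3, a kinase gene, was at 11.2 and 12.0 FPKM with RfxCas13d against 20.2 and 20.1 FPKM with dRfxCas13d, a log2 fold change of -0.75 ± 0.0775. Map2, coding for a dendritic microtubule protein, was at 7.37 and 8.07 FPKM against 11.4 and 10.3 FPKM, a log2 fold change of -0.44 ± 0.0746. Mapt, the tau gene, was at 20.5 and 21.2 FPKM against 34.8 and 32.9 FPKM, a log2 fold change of -0.67 ± 0.0621. All 3 fell (limma, adjusted p at most 3.72e-05), and the RfxCas13d and dRfxCas13d libraries of each did not overlap. Of all genes tested, 24.8% fell in this comparison and 34.6% were lower without overlap.

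Outside Rbfox3, 43 genes had a place with 5 or fewer mismatches to the Rbfox3 crRNA 5 spacer, Rbfox1 and Rbfox2 among them. Of the 25 tested, 10 fell and 6 rose at an adjusted p under 0.05 in that comparison, beside 24.8% and 26.4% of all genes. Kif27, a kinesin gene, was the 1 DEG, at -1.08 on the log2 scale, and was named after its value was seen. It averaged only 0.872 FPKM over all libraries, so it passed the filter of 1 FPKM through libraries in which it was higher.

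Other splicing regulators of neurons and muscle mostly moved down with Rbfox2. With Rbfox3 crRNA 5, 13 of 22 tested fell and 3 rose at an adjusted p under 0.05, beside 24.8% and 26.4% of all genes, and the median log2 fold change was -0.18 against 0.01 for all genes. None reached a 2-fold change, and 7 of the 29 listed did not pass the filter on low values. The 3 that rose, Ptbp1 at 0.15, Elavl1 at 0.17 and Celf3 at 0.18 on the log2 scale, were named after their values were seen. None was called under quantile normalization, where Ptbp1 turned to -0.01, nor without RfxCas13d replicate 1 or dRfxCas13d replicate 2 of this crRNA.

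Ptbp2, which represses exons of mature neurons, fell from 42.8 ± 2.66 to 29.5 ± 0.887 FPKM with Rbfox3 crRNA 5 (SD, n = 2 each), which was a log2 fold change of -0.52 ± 0.053 (SE, limma, adjusted p = 4.18e-08). Mbnl2, a muscleblind factor that binds YGCY motifs, fell from 43.5 ± 1.63 to 31.0 ± 1.69 FPKM, or -0.48 ± 0.0534 on the log2 scale. Celf4, a CELF factor of excitatory neurons, fell from 22.4 ± 4.09 to 13.3 ± 1.60 FPKM, or -0.70 ± 0.1 on the log2 scale. Qk, the STAR-family factor quaking, fell from 21.5 ± 1.79 to 16.6 ± 0.924 FPKM, or -0.35 ± 0.0657 on the log2 scale.

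Over the 7 targeting crRNAs, 18 of the 22 regulators fell and 2 rose, beside 38.1% and 40.6% of all genes, with a median of -0.28 against 0.01 for all genes. The smallest p-values were those of Mbnl2, Ptbp2, Elavl4, a neuronal Hu protein, and Srrm4, an activator of neuronal microexons. Srrm4 fell from 11.1 ± 0.811 to 7.15 ± 0.995 FPKM (SD, n = 14 each) and Elavl4 from 45.0 ± 3.45 to 31.3 ± 3.23 FPKM (SD, n = 14 each). Ptbp1 and Elavl1, named after their values were seen, were the 2 that rose, at 0.28 and 0.09 on the log2 scale, and under quantile normalization they were at 0.03 and -0.01 and not called (limma, adjusted p = 0.247 and 0.738). With the exon length trend removed 14 fell and 5 rose. With no crRNA none of the 22 passed the test in limma, which 2.85% of all genes passed downwards and 2.52% upwards, and with NT crRNA 2 fell and 2 rose, beside 11.3% and 11.0% of all genes. Without the library with liver messages none fell and 1 rose with NT crRNA, beside 7.03% and 6.82% of all genes, and over the 36 fits with a library left out 0 to 3 fell and 0 to 3 rose.

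The LASR complex is an assembly of RNA-binding proteins that Rbfox joins and that includes hnRNP M, hnRNP H, Matrin3, DDX5 and ILF2. All 8 genes on the list were tested. Those that can be reported by name were abundant, from 40.8 ± 2.94 FPKM for Hnrnpul2 to 380 ± 16.6 FPKM for Hnrnph1 in the dRfxCas13d libraries (SD, n = 18 each). In the cells with Rbfox3 crRNA 5, 4 of the 8 fell and 1 rose, beside 24.8% and 26.4% of all genes, and the median log2 fold change was -0.11 against 0.01 for all genes. Matr3, a nuclear matrix protein gene, fell from 170 ± 0.462 to 146 ± 3.49 FPKM (SD, n = 2 each), a log2 fold change of -0.23 ± 0.034 (SE, limma, adjusted p = 9.62e-06). Hnrnph1 and the RNA helicase gene Ddx5 fell by less, at -0.12 and -0.14 on the log2 scale. Ilf2, coding for an RNA-binding factor of the complex, rose from 92.6 ± 1.89 to 112 ± 2.26 FPKM (SD, n = 2 each), a log2 fold change of 0.28 ± 0.0381 (limma, adjusted p = 3.16e-06).

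In the mean of the 7 targeting crRNAs, 6 of the 8 LASR genes fell and 2 rose, beside 38.1% and 40.6% of all genes, with a median of -0.11 against 0.01. Ilf2 rose by 0.28 and Matr3 fell by 0.25 on the log2 scale. With the exon length trend removed 3 of the 8 genes fell and 3 rose. Hnrnpc was the other gene that rose, at 0.10, was named after its value was seen, and turned to -0.11 under quantile normalization (limma, adjusted p = 1.32e-08).

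Genes with exons or transcripts known to be regulated by Rbfox proteins were followed at the level of the whole gene, since the table holds no exon counts and splicing was not analysed here. Of 18 listed, 15 passed the filter on low values. Under Rbfox3 crRNA 5, 9 of the 15 fell and 1 rose, beside 24.8% and 26.4% of all genes, with a median log2 fold change of -0.30 against 0.01. These shares were not matched for exon length. Of genes of over 8000 and up to 10000 nt 42.6% fell in this comparison, and of those over 10000 nt 59.7%. With the exon length trend removed 8 of the 15 fell and 3 rose. The 1 that rose in the main fit was Vamp1, a synaptic vesicle SNARE gene known in mice to be stabilized by Rbfox1, at 0.29 (limma, adjusted p = 0.0374), named after its value was seen. This call was lost on leaving out any 1 of the 4 libraries of that crRNA, and under quantile normalization (0.25, limma, adjusted p = 0.0775).

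Cacna1c, the L-type calcium channel gene with mutually exclusive exons, fell the most on this list. It went from 6.18 ± 0.0445 to 2.51 ± 0.0933 FPKM with Rbfox3 crRNA 5 (SD, n = 2 each), a log2 fold change of -1.03 ± 0.0721 (SE, limma, adjusted p = 1.89e-10), and was the only one of the 15 to reach 2-fold. Ank3, the ankyrin G gene, fell from 12.9 ± 0.216 to 7.52 ± 0.0601 FPKM, or -0.70 ± 0.0652 on the log2 scale. Epb41, coding for the membrane skeleton protein 4.1, fell from 22.5 ± 0.0163 to 15.2 ± 0.396 FPKM, or -0.54 ± 0.0593 on the log2 scale. Ktn1, the kinectin gene, fell from 53.1 ± 0.672 to 40.4 ± 1.68 FPKM, or -0.39 ± 0.0516 on the log2 scale.

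Over the 7 targeting crRNAs, 14 of the 15 fell and Vamp1 rose, beside 38.1% and 40.6% of all genes, with a median of -0.32 against 0.01. Cacna1c fell from 5.74 ± 0.418 to 1.86 ± 0.368 FPKM (SD, n = 14 each). With the exon length trend removed 9 fell and 4 rose. Without a crRNA none of the 15 passed the test in limma, which 2.85% of all genes passed downwards and 2.52% upwards. With NT crRNA 3 fell and 1 rose, beside 11.3% and 11.0% of all genes, and without the library with liver messages 2 fell and none rose, beside 7.03% and 6.82%. Over the 36 fits with a library left out, 1 to 3 fell and 0 to 1 rose.

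**Figure D5:**
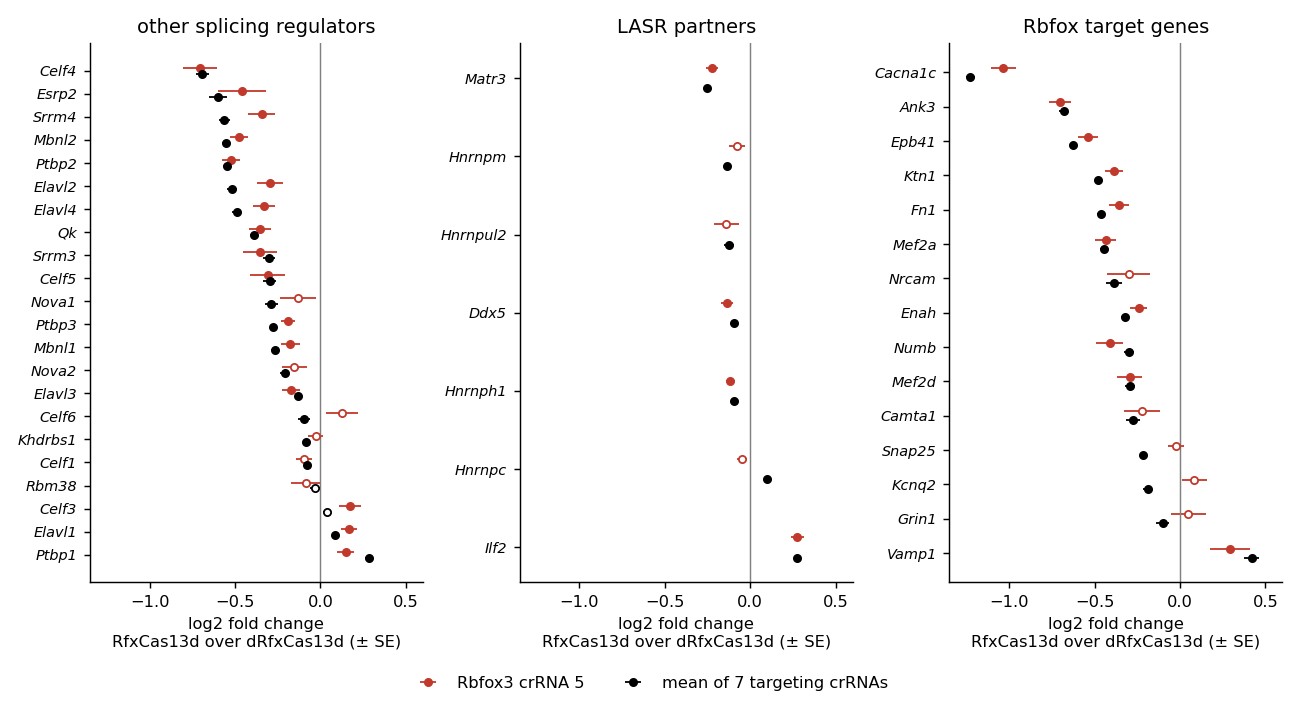
Log2 fold changes, RfxCas13d over dRfxCas13d, with SE from limma, of other splicing regulators, 7 of the 8 LASR partners and genes with Rbfox-regulated exons or transcripts, with Rbfox3 crRNA 5 (red) and for the mean of the 7 targeting crRNAs (black); filled points have an adjusted p under 0.05. Most points lie left of 0, Cacna1c lies at -1.03 and -1.23, and Ilf2 and Vamp1 lie right of 0 in both.

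Other markers of neuronal identity did not share one direction. Under Rbfox3 crRNA 5, 3 of 9 tested mature neuron genes rose, among them Tubb3, at a log2 fold change of 0.42 ± 0.0437, and the synaptic vesicle gene Syp, at 0.32 ± 0.0517, and 3 fell, Mapt and Map2 among them, beside 26.4% of all genes higher and 24.8% lower. Of 8 sympathetic neuroblast genes tested, 3 rose beside those 26.4%, among them Chga, coding for chromogranin A, at 0.33 ± 0.0547 and the transcription factor gene Isl1 at 0.61 ± 0.16, while Gata3 fell by 0.32 ± 0.125 (limma, adjusted p = 0.0363), a call lost without RfxCas13d replicate 1 or either dRfxCas13d library of this crRNA. In the mean of the 7 targeting crRNAs 7 of these 8 rose and none fell, beside 40.6% and 38.1% of all genes, and of the 9 mature neuron genes 4 rose and 5 fell. Of the 8, 4 rose and 2 fell under quantile normalization, and 4 rose and 1 fell with the exon length trend removed. The rise of Tubb3 over the 7 targeting crRNAs, 0.32 ± 0.0165, turned to -0.00 under quantile normalization (limma, adjusted p = 0.897). Of the markers of other cells, 1 of 2 fibroblast genes tested, Col1a1, and the 1 macrophage gene tested, Cd68, rose with Rbfox3 crRNA 5. Their log2 fold changes were 0.35 and 0.58 from dRfxCas13d means of 0.536 and 1.69 FPKM. Col1a1, there below the 1 FPKM of the filter, was tested through libraries in which it was higher. Neither of 2 glia genes passed the test. Of 4 liver transcripts tested, none passed it with Rbfox3 crRNA 5. In the mean of the 7 targeting crRNAs 3 of these 4 fell and none rose, beside 38.1% and 40.6% of all genes. The call of Col1a1 was lost without RfxCas13d replicate 1 or either dRfxCas13d library of this crRNA, and that of Cd68 on leaving out any of 24 of the 36 libraries. Their part in the Rbfox values was not tested.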

How the data were processed

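Per the labels and the study's methods, the authors used Trim Galore for trimming, Subread and featureCounts for mapping and counting on mm10, and deposited FPKM with 3 decimals for each library. For the annotation, strand setting and software versions: not given in the sources used here. DESeq2 results of the authors were not used. The 3 members and all gene lists were chosen with earlier results of these data known.

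Median-of-ratios factors, 1 per library, were applied to the FPKM. The log2 of the scaled FPKM plus a pseudocount of 1 went into limma 3.58.1 (R 4.3.3), which fitted the mean of every group with an intensity trend in the variance. Benjamini-Hochberg adjustment ran over 13293 genes that reached 1 FPKM in 2 or more libraries. Fold changes are on this log2 scale, which understates changes of low genes. For means over crRNAs and for interactions, SE, intervals and p-values hold the spread between libraries of a group, not that between crRNAs. Genes passed the test at an adjusted p under 0.05. DEGs also changed at least 2-fold. With 2 libraries against 2 an exact permutation test cannot go below p = 0.333, so single comparisons rest on the shared model. Levels in the text are unscaled deposited FPKM. The fit was tested on simulated data.

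Rbfox1 and Rbfox3 were under the filter and were tested as scaled FPKM by permutation within crRNA conditions. Fragments per library, 8680000 to 12170000 with dRfxCas13d and 10370000 to 16530000 with RfxCas13d, were estimated from steps of 1 fragment among low values of 1122 single-exon genes. Of the values used, 65.7 to 79.3% were whole within 0.1, so depths are approximate. The effective exon lengths of Rbfox1 and Rbfox3 were fitted in the same way, at 7470 and 4952 nt against 4400 and 5818 nt in GENCODE, and 34 of 36 and 24 of 24 values above 0 were whole within 0.2 fragments.

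Spacers from the study's supplementary tables were compared without gaps with all transcripts of GENCODE release M21 (GRCm38). Named genes were, besides the 3 members and the crRNA targets, up to 4 tested genes per list with the smallest p with Rbfox3 crRNA 5 and in the mean of 7, the 5 genes most like Rbfox2 and up to 5 genes with the fewest mismatches to the spacer. Alternatives were other pseudocounts, filters and scalings, exon length, a replicate block, 4-library fits and leaving out each library. List counts include a few members that are not reported here by name.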

Additional observations from a re-analysis of the deposited data

Results flagged for a closer look

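The nuclease effect on Rbfox2 differed between crRNA conditions by the test of the difference itself in 2 instances. It was more negative with the 7 targeting crRNAs than with NT crRNA by -0.36 on the log2 scale (limma, adjusted p = 1.71e-05), with 7 of 7 targeting crRNAs below NT crRNA. It was less negative with Rbfox3 crRNA 5 than with the mean of the other 6 targeting crRNAs by 0.17 (limma, adjusted p = 0.0487), a value at the threshold.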

How the results depend on the processing

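Leaving out each library gave Rbfox2 log2 fold changes of -0.32 to -0.27 with Rbfox3 crRNA 5, -0.45 to -0.43 for the mean of the 7 targeting crRNAs, and 0.14 to 0.20 for Rbfox3 crRNA 5 against the other 6, which passed the test in 8 of 36 such fits. That difference also missed the threshold with quantile normalization (0.17, adjusted p = 0.0661), exon length trend removed (0.13, adjusted p = 0.152), the same with a replicate block (0.13, adjusted p = 0.142) and no filter with a pseudocount of 0.1 (0.18, adjusted p = 0.0521, chosen after seeing the data). RfxCas13d with Rbfox3 crRNA 5 against NT crRNA gave -0.21 in only its 4 libraries (adjusted p = 0.0686). With no crRNA and NT crRNA only, Rbfox1 turned to 0.0217 scaled FPKM and Rbfox2 gave -1.46 scaled FPKM (exact permutation p = 0.0556, the smallest possible). With Rbfox3 crRNA 5, rising regulators numbered 0 with quantile normalization and in the 4-library fit and 0 to 3 with a library left out, and falling ones 5 in the 4-library fit. Falling LASR genes numbered 7 with quantile normalization and 1 in the 4-library fit. Rising target genes numbered 0 in 4 settings (no filter, quantile normalization, no filter with a pseudocount of 0.1, 4 libraries), 3 with the exon length trend removed, with or without a replicate block, and 0 to 1 with a library left out. In the mean of the 7, rising regulators numbered 0 with quantile normalization and 5 without the length trend, rising LASR genes 1 with quantile normalization, falling LASR genes 3, falling target genes 9 and rising target genes 4 without the length trend, all 4 alike with a replicate block. Mbp turned to 0.00235 without the length trend, alike with a replicate block, and Tubb3 to -0.00248 with quantile normalization, and the cause of these changes was not tested. Over all genes, the 4-library fit called 2290 genes higher and 2018 lower with Rbfox3 crRNA 5, against 3510 and 3301. No pairing by replicate number was seen in expression, where correlations of same-numbered deviations within crRNA conditions were -0.03 to 0.06. These cannot show how the libraries were made. The replicate block gave Rbfox2 -0.30 with Rbfox3 crRNA 5 (adjusted p = 1.58e-05) and changed 1 of 102 calls or counts. Depth limits Rbfox3 to 0 to 5 fragments per library.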
